A study of Mus musculus with 2 samples.

Results

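The metalloproteinases and their inhibitors were described across the cell types of the mouse colon. The members were every gene row whose symbol is Mmp, Timp, Adam, Adamts or Adamtsl followed by a number, with or without a final letter. This gave 65 genes of the 17809 listed for the wild-type library and 53 of the 15972 listed for the reporter library, and all 53 were among the 65. The wild-type library held 18 Mmp, 4 Timp, 19 Adam, 19 Adamts and 5 Adamtsl genes, and the reporter library 14, 4, 14, 16 and 5.

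Matrix metalloproteinases (Mmp) are zinc-dependent enzymes that cut collagens, proteoglycans and other proteins around cells, and some are anchored in the cell membrane. Adam proteins are membrane-bound relatives, several of which shed growth factors and receptors from the cell surface, while secreted Adamts enzymes trim procollagens and cut large proteoglycans such as versican and aggrecan. Adamtsl proteins resemble the latter but lack the catalytic part, and the Timp proteins inhibit the enzymes. In the gut this system is best known for turnover of the matrix beneath the epithelium and for tissue damage in inflammation.

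Both libraries were made from the colon of female mice aged 8 to 12 weeks, with cells of 3 mice pooled in each. The wild-type library came from strain C57BL/6, and held EpCAM-positive epithelial and EpCAM-negative, CD45-negative other cells mixed in equal parts. The reporter library came from Pdgfra-H2B-eGFP mice, which carry a nuclear green fluorescent protein under control of the gene for the fibroblast receptor Pdgfra, and held sorted fluorescent mesenchymal cells, so that the sort sets which fibroblasts it holds. The epithelium of both was first detached for 30 minutes. The mesenchyme was then freed with collagenase D and Dispase for 1 hour at 37 degrees. For the wild-type library the detached epithelium was made into single cells with TrypLE instead. Comparisons of epithelium with fibroblasts may thus also compare these procedures, whose part was not tested. The labels name no further treatment. Cells were not assigned to mice, so each library has no replicate, differences are given as sizes only, and no test was run.

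Cells were clustered again with all members left out, and clusters were named from other marker genes with the ending "-like". CTFs are the crypt top fibroblasts of the study and CBFs its crypt bottom fibroblasts, in 2 types. In the wild-type library there were 1137 CBFs1-like, 507 CBFs2-like, 819 CTFs-like, 947 smooth muscle-like, 118 pericyte-like, 592 blood endothelial-like, 43 lymphatic endothelial-like, 78 glia-like and 40 immune-like cells. Its epithelium divided into 671 enterocyte-like, 705 transit-amplifying-like, 86 enteroendocrine-like and 638 goblet-like cells and 377 cells without a type name. The reporter library held 2634 CBFs1-like, 851 CBFs2-like, 758 CTFs-like, 114 immune-like and 52 epithelial cells. The CBFs1-like cells there included a cluster of 1106, led by the activation genes Sbno2, Tnfaip3 and Cxcl2, and an inflammatory cluster of 544. In the cluster of 1106 none of the 10 CBFs1 markers stood 2-fold above the other reporter cells with at least 10% of its cells above 0. In the remaining cluster of 984 cells 1 of the 10 did. Without the cluster of 1106, 9 members in place of 8 were past 2-fold in CTFs-like over CBFs-like. There were 8 in place of 7 in CBFs2-like over CBFs1-like, and 5 in place of 4 in the comparison of the inflammatory cluster. The immune-like cells of both libraries were led by immunoglobulin genes. Levels are mean corrected counts per cell, a UMI count adjusted by the authors to a common depth per library. Totals per cell lay between 6120 and 16389 in the wild-type and between 2314 and 4432 in the reporter library, so that levels are not compared between libraries, nor between genes. The levels of 2 genes describe the classes, but both are in the marker lists used for naming, so that they do not check the labels. Epcam averaged 17.8 to 30.3 in the epithelial classes and 0.476 to 1.41 in the other named classes, and Pdgfra averaged 1.79 to 8.59 in the wild-type fibroblasts and 0.285 to 1.03 in the reporter fibroblasts. The libraries shared 1 cell barcode.

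Several members lie side by side in the genome. The genes from Mmp13 to Mmp7 fill 427072 bases of chromosome 9 (chr9:7272514-7699585, GRCm38), where 9 protein-coding Mmp genes are annotated and 6 of them were in the table. Timp1 lies inside Syn1 (chrX:20870166-20874735), Timp3 inside Syn3 (chr10:86300372-86349506) and Timp4 inside Syn2 (chr6:115241892-115252205), each on the strand opposite to its host. Of the 65 members, 10 overlap the span of another gene on the same strand, and for 4 of them, among them Timp2 with Cep295nl, that gene is protein-coding. Whether their exons overlap, and so whether counts could be shared between the genes, was not examined. Of the members, 40 were matched by symbol in the promoter table of RefSeq (GRCm38.p6). The site bound by AP-1, a transcription factor of growth and inflammatory signals, is TGAGTCA or TGACTCA, each the reverse complement of the other. It stood in the 300 bases around the start (250 before, 50 after) of 6 matched members (15%), namely Adam19, Adam1b, Mmp3, Mmp7, Mmp10 and Mmp13, and in 5.95% of all 27025 genes in that table. The 250 bases before the start are shown for Mmp10 (chr9:7502092-7502341), Mmp3 (chr9:7445572-7445821), Mmp13 (chr9:7272264-7272513) and Adam19 (chr11:46055734-46055983), all on the plus strand. The first 3 lie in the chromosome 9 group, in which Mmp3 and Mmp10 are adjacent, and Mmp10 and Adam19 were higher in CTFs-like cells of both libraries. Mmp7, in the same group, also holds the motif but is not shown. The capitals mark the motif, which begins 63, 46, 35 and 131 bases before the start.
Mmp10: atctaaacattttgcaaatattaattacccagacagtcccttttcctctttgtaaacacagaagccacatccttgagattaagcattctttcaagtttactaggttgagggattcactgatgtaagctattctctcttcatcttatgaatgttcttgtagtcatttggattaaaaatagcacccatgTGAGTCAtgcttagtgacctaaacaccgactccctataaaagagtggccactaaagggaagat
Mmp3: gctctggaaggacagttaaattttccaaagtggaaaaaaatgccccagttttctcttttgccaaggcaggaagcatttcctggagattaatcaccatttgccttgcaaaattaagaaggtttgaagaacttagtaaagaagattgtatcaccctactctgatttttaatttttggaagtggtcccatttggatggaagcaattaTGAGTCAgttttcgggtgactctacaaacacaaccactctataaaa
Mmp13: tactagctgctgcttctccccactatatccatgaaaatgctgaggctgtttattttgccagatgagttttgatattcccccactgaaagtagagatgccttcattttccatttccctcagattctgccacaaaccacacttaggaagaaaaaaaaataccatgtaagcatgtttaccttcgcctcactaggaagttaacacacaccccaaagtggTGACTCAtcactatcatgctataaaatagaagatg
Adam19: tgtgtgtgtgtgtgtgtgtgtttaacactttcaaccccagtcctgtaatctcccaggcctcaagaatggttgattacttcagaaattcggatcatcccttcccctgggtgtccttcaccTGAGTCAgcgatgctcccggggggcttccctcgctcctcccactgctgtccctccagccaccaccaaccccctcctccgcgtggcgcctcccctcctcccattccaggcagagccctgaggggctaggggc
A match describes the letters only, and binding was not measured.

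Most members were found in the stroma. In the wild-type library 54 of the 65 reached a mean of 0.05 in at least 1 class. The highest mean was in CBFs2-like cells for 13 of these, in glia-like cells for 8, in CBFs1-like cells for 7 and in CTFs-like cells for 6. Epithelial classes were highest for 6, which were Adam18, Adamts17 and Mmp7 in goblet-like cells, Mmp24 in enteroendocrine-like cells, and Timp4 and Adamts15 in the epithelial class without a type name. The other 11 members (Adam1a, Adam1b, Adam4, Adam5, Adam28, Adam32, Adamts13, Adamts16, Mmp20, Mmp25 and Mmp27) stayed below 0.05 in each class. In the reporter library 29 of 53 members reached 0.05, with 10 highest in CBFs1-like, 7 each highest in CTFs-like and CBFs2-like, 3 in epithelial and 2 in immune-like cells.

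**Figure D1:**
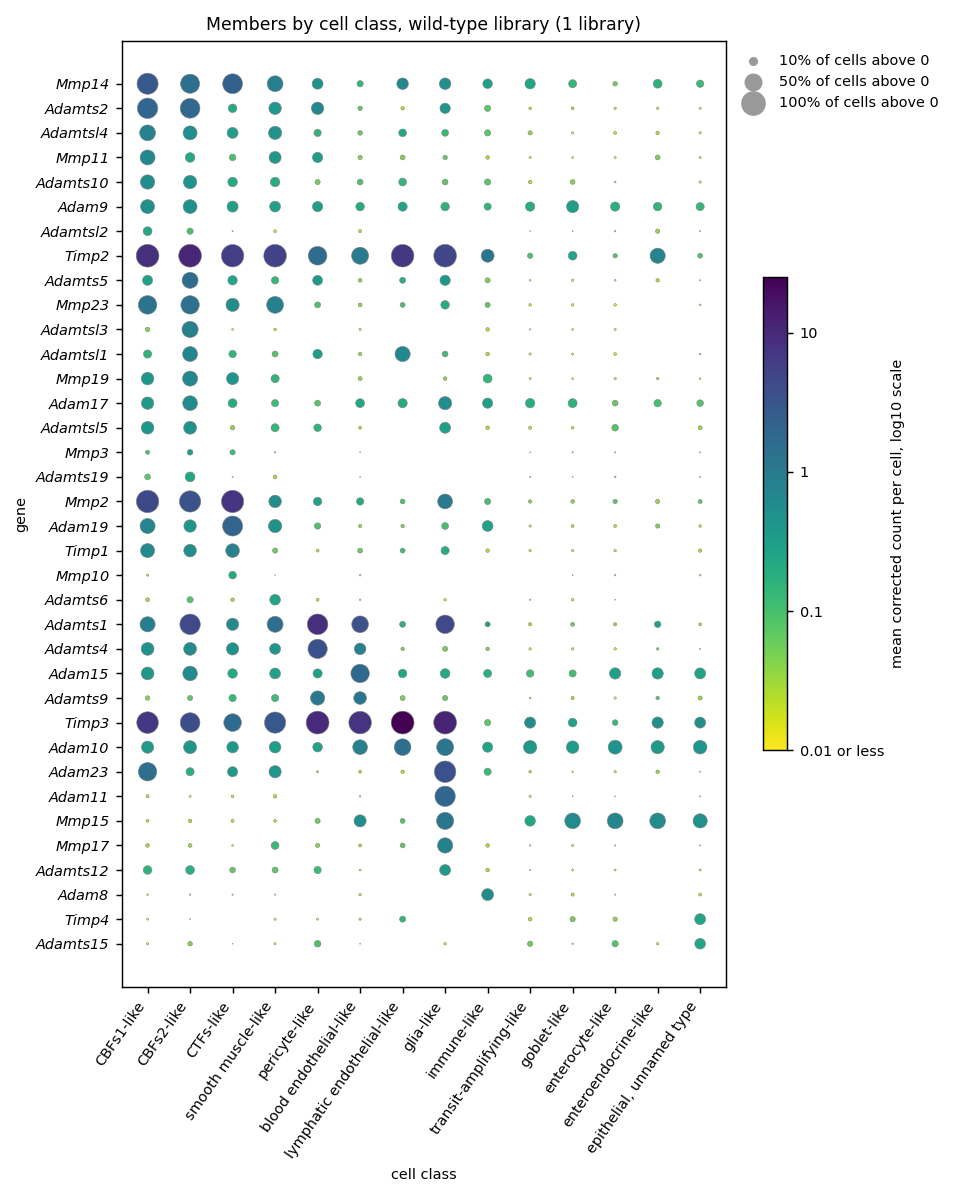
Members with a mean of at least 0.2 in some class (rows) in the cell classes of the wild-type library (columns), with the mean corrected count per cell as colour on a log10 scale and the share of cells above 0 as dot area. In its own row Mmp2 is darkest in CTFs-like cells (7.45), Timp3 in lymphatic endothelial-like cells (25.0) and Adamts1 in pericyte-like cells (8.77), while the epithelial columns are pale for most genes.

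Summed over a family, and so governed by its most abundant genes, the Mmp level per cell of the wild-type library fell from 11.3 in CTFs-like over 9.88 in CBFs1-like to 7.78 in CBFs2-like cells. The Timp sum was 32.5 in lymphatic endothelial-like cells, 16.3 in both glia-like and CBFs1-like cells, 15.3 among CBFs2-like cells and 0.26 to 1.23 in the epithelial classes. Adamts was highest in pericyte-like cells, at 15.1, followed by CBFs2-like cells at 9.58, and Adam in glia-like cells, at 7.92. The plot of family sums shows these 5 profiles side by side. They peak in different classes for Mmp, Timp, Adam and Adamts, while Adamtsl peaks in CBFs2-like cells.

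**Figure D2:**
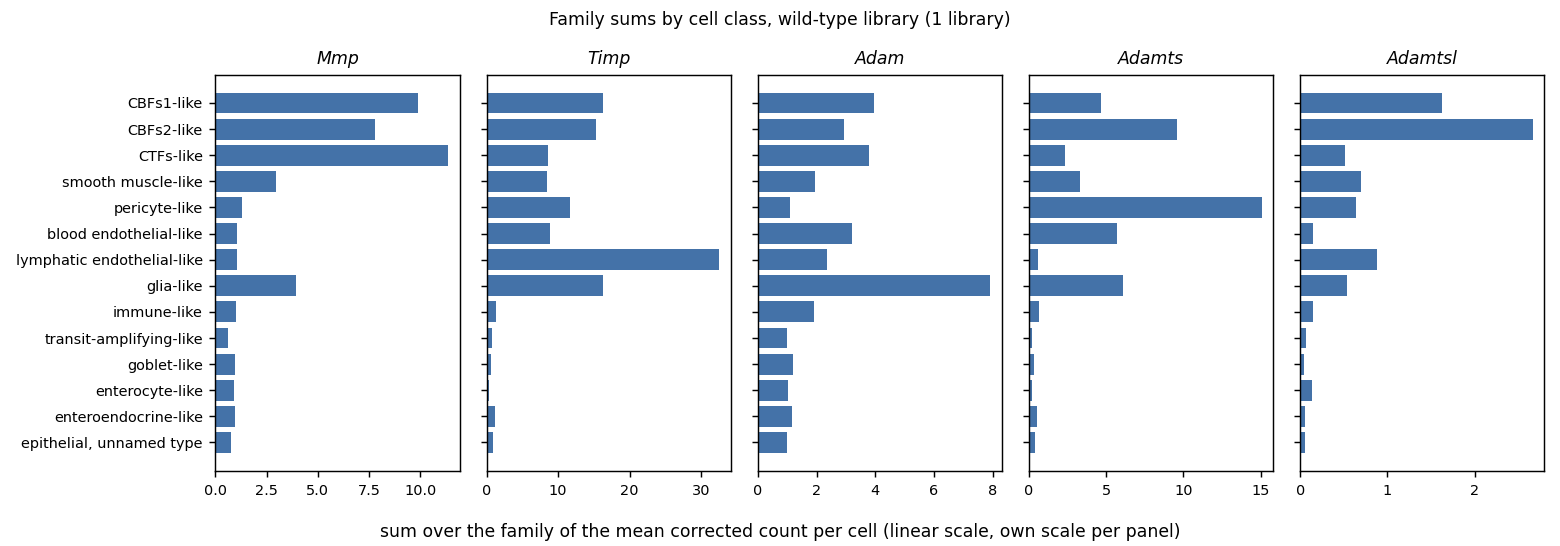
Sum of the mean corrected counts per cell over each family (horizontal axis, own linear scale per panel) in each class of the wild-type library, 1 bar per class with no error bar, since there is 1 library. The Timp bar of lymphatic endothelial-like cells reaches 32.5 and the Adamts bar of pericyte-like cells 15.1.

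Of the inhibitors, Timp3, which binds to the matrix, averaged 25.0 in lymphatic endothelial-like, 11.4 in glia-like, 10.0 in pericyte-like, 7.81 in blood endothelial-like and 7.11 in CBFs1-like cells. Its lower stromal means were 4.06 (CBFs2-like), 3.03 (smooth muscle-like) and 1.69 (CTFs-like). All 43 lymphatic endothelial-like and all 118 pericyte-like cells had a Timp3 value above 0. Timp2, which also takes part in the activation of Mmp2, averaged 10.7 in CBFs2-like, 8.55 in CBFs1-like, 7.23 in lymphatic endothelial-like and 6.09 in CTFs-like cells, with 5.37 for smooth muscle-like and 1.01 for blood endothelial-like cells. Timp1, the inducible inhibitor, was a gene of fibroblasts, at 0.814 in CTFs-like cells, with 0.589 for CBFs1-like and 0.542 for CBFs2-like cells, against 0.0591 in smooth muscle-like cells. Timp4 was near 0 in fibroblasts and reached 0.241 in the epithelial class without a type name. Given in the order CBFs1-like, CBFs2-like and CTFs-like, the reporter means of Timp3 were 2.13, 1.18 and 0.694, those of Timp2 2.19, 2.69 and 1.48, and those of Timp1 0.373, 0.322 and 0.431. By mean, both libraries thus had Timp3 highest in the CBFs1-like, Timp2 in the CBFs2-like and Timp1 in the CTFs-like fibroblasts. The share of wild-type cells with Timp1 above 0 was 38.0% in CBFs1-like and 36.0% in CTFs-like cells.

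Among the secreted Mmp enzymes, the gelatinase Mmp2 averaged 7.45 in CTFs-like cells, beside 4.40 for CBFs1-like and 3.43 for CBFs2-like cells. Glia-like cells had 1.01 and smooth muscle-like cells 0.554, with at most 0.079 in the epithelial classes. Mmp11 (stromelysin 3) was highest in CBFs1-like cells, at 0.688, and Mmp19 in CBFs2-like cells, at 0.653. The stromelysins Mmp3 and Mmp10, neighbours on chromosome 9, differed in pattern. Mmp3 averaged 0.308 in CBFs2-like cells, with 0.125 for CTFs-like and 0.108 for CBFs1-like cells, while Mmp10 averaged 0.222 in CTFs-like and 0.0176 in CBFs1-like cells and was seen for 0 of 507 CBFs2-like cells. A limit of 3 counts allows a share of up to 0.592% of cells with a value above 0, and does not limit the cells that express it. Both were uneven between cells. The few CBFs2-like cells with Mmp3 (6.11%) averaged 5.03 each, and the highest cell had 46. The gelatinase Mmp9 and the collagenase Mmp13 were highest in the 40 immune-like cells, at 0.175 and 0.150, but these are sums of 7 from 2 cells (5%) and of 6 from 1 cell (2.5%), and Mmp7 (matrilysin) was highest in goblet-like cells, at 0.0643. The neutrophil sheddase Adam8 was at 0.575 in the immune-like class, from 27.5% of its cells, and at most 0.0188 elsewhere.

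The membrane-anchored Mmp enzymes divided the tissue. Mmp14, an activator of Mmp2, averaged 2.82 in CBFs1-like, 2.37 in CTFs-like and 1.53 over CBFs2-like cells, and 0.0551 to 0.251 in epithelial classes. Mmp15 was at 0.0167 to 0.0237 in the fibroblast types, 0.530 in blood endothelial-like, 1.17 in glia-like and 0.234 to 0.694 in epithelial cells. Mmp16 was highest in CBFs2-like cells (0.158) and Mmp17 in glia-like cells (0.833). Mmp23, a membrane protein released by cleavage, averaged 1.4 in CBFs2-like and 1.28 in CBFs1-like cells, above the 0.868 of smooth muscle-like and the 0.548 of CTFs-like cells.

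The sheddase Adam10 was found in all 14 classes, at 0.25 to 1.42. Adam17, the sheddase of tumour necrosis factor, ranged from 0.0671 in enterocyte-like to 0.596 in CBFs2-like cells. Adam15 was highest in blood endothelial-like cells, at 1.79 against at most 0.617 elsewhere, and Adam9 in CBFs1-like cells, at 0.507. Adam19 averaged 2.10 in CTFs-like cells, and lower in CBFs1-like (0.716), smooth muscle-like (0.479) and CBFs2-like (0.406) cells. Adam11, Adam22 and Adam23, which lack an active enzyme site and are known from neurons, were all highest in glia-like cells, at 1.88, 0.154 and 3.63. Adam11 was at most 0.0232 in any other class, whereas Adam23 also averaged 1.5 in CBFs1-like cells.

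Of the Adamts enzymes that cut proteoglycans, Adamts1 averaged 8.77 in pericyte-like, 4.38 in glia-like, 4.35 in CBFs2-like and 3.48 in blood endothelial-like cells. Adamts4 averaged 3.64 in pericyte-like and at most 0.816 in other classes, and Adamts9 1.15 in blood endothelial-like and 1.12 in pericyte-like cells. The list of activated fibroblast genes, with Cxcl2 and Tnfaip3, had mean log2 ratios over the other cells of 1.47 in pericyte-like and 1.19 in glia-like cells. It had 1.19 in immune-like cells too, whose Adamts sum was 0.65. Whether activation bears on these levels was not tested. Adamts5 was highest in CBFs2-like cells, at 1.58 against at most 0.423 elsewhere. Adamts2, which removes the N-terminal propeptide of fibrillar procollagens, averaged 1.92 in CBFs1-like and 1.83 among CBFs2-like cells but 0.217 among CTFs-like cells. Its relative Adamts3 was highest in CTFs-like cells, at 0.109. In the reporter library Adamts3 averaged 0.0182 in CBFs1-like and 0.0158 in CTFs-like cells. Of the wild-type Adamtsl genes, Adamtsl3 and Adamtsl1 were highest in CBFs2-like cells (0.862 and 0.722), and Adamtsl4, an ally of fibrillin microfibrils, in CBFs1-like cells (0.786).

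More members were lower than higher in crypt top against crypt bottom fibroblasts. In CTFs-like against CBFs-like cells of the wild-type library, a gene was counted as higher or lower at 2-fold or more, among genes whose 2 class means averaged at least 0.05. Of the 35 members that passed this filter, 6 were higher, 18 were lower and 11 were within 2-fold, beside 12.6% of all genes past 2-fold (5.26% higher and 7.37% lower). The median log2 ratio was -1.06 over the members and -0.07 over all genes. The 6 higher members were Mmp10 (0.222 against 0.0122, 18.3-fold), Adam33 (0.127 against 0.0073), Adamts18 (0.112 against 0.00852), Adamts3, Adam19 (2.10 against 0.620, 3.39-fold) and Adamts9 (0.128 against 0.0511). All of these but Adam19 had low means. The lower members held 6 Adamts and all 5 Adamtsl genes. Adamts2 averaged 0.217 against 1.89 (8.70-fold), Adamtsl5 0.0391 against 0.429 (11.0-fold), Adamtsl3 0.00611 against 0.295 (48.3-fold) and Timp3 1.69 against 6.17 (3.65-fold). Adamtsl2 had a sum of 2 over the CTFs-like and 310 over the CBFs-like cells, a ratio of 77.2 (95% counting interval 21.2 to 640), and Adamts19 2 and 204, a ratio of 50.8 (13.9 to 422). These intervals cover counting error only, and with the floor of 3 summed values Adamtsl2 was at least 51.5-fold lower. In the reporter library both genes were below the filter, with sums of 6 and 57 for Adamtsl2 (2.07-fold lower) and of 0 and 77 for Adamts19. Of the higher members, Adam33 (0.0343 against 0.00172), Adamts9 (0.0488 against 0.0169), Adamts18 (sums of 6 and 3) and Adamts3 (0.0158 against 0.0152) were below it there. Adamts3 was thus about level in that library.

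For the reporter library 24 members passed the filter, of which 3 were higher, 5 lower and 16 within 2-fold, beside 10.2% of all genes past 2-fold (6.98% higher, 3.23% lower). The median was -0.36 over the members and 0.29 over all genes. Mmp10 averaged 0.141 in CTFs-like against 0.00459 in CBFs-like cells (30.7-fold), Adam19 0.528 and 0.168 (3.15-fold), and Mmp3 0.12 and 0.0430 (2.79-fold). Adamtsl5, Timp3, Adamts2, Adamts1 and Adam23 were lower, by 2.59-fold to 2.87-fold. Mmp2 was higher in the CTFs-like cells of both libraries without reaching 2-fold, with 2.26 against 1.17 in the reporter cells and 7.45 against 4.10 in the wild-type cells. Of 24 members that passed the filter in both libraries, 19 (79.2%) had ratios of the same sign and 7 (29.2%) passed 2-fold in the same direction in both, with none in opposite directions. Of the 6599 genes of all kinds that passed in both, 65.1% had the same sign and 6.89% passed 2-fold in the same direction. Spearman's rho across these genes was 0.924, and it was 0.617 across all 6599. Genes are not independent replicates, and both libraries were named from the same marker lists. Mmp3 was the member whose sign differed most, with log2 ratios of -0.45 and 1.48.

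**Figure D3:**
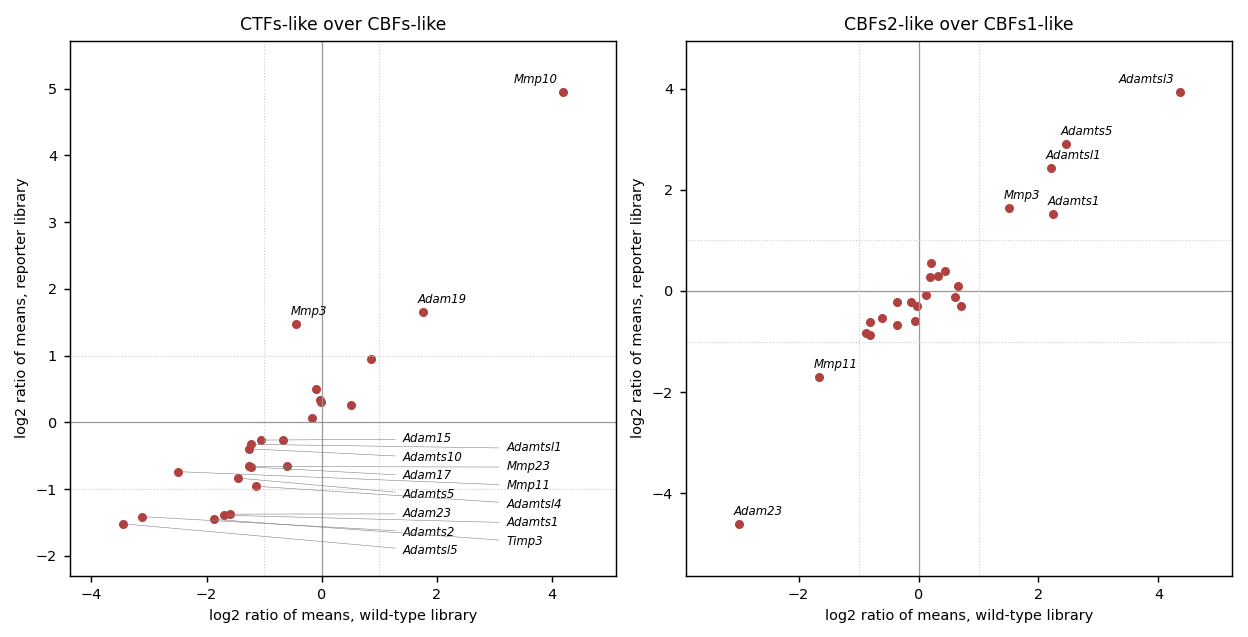
Each point is a member that passed the filter in both libraries, with the log2 ratio of class means in the wild-type library on the horizontal and in the reporter library on the vertical axis, and dotted lines at 2-fold. Mmp10 and Adam19 lie at the upper right of the left panel, Mmp3 lies above 0 only on the vertical axis, and Adamtsl3 and Adam23 lie at the far ends of the right panel.

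The shares of cells above 0, which come from the same values as the means, gave the same order of fibroblast types for Mmp10 and Adam19. Mmp10 was above 0 in 11.2% of wild-type CTFs-like cells (95% Clopper-Pearson interval 9.15% to 13.6%) and in 0 of 705 transit-amplifying-like cells, whose median of 3425 genes was above the 2438 of CTFs-like cells. Adam19 was above 0 in 76.8% of CTFs-like (73.8% to 79.7%), 43.5% of CBFs1-like, 29.6% of CBFs2-like and 0.993% of transit-amplifying-like cells. With each cell thinned to a total of 2000, the shares for Adam19 were 35.8%, 14.1%, 9.86% and 0.567%, and those for Mmp10 in CTFs-like and CBFs1-like cells 4.76% and 0.352%. The plot of shares by fibroblast type gives these genes for both libraries.

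**Figure D4:**
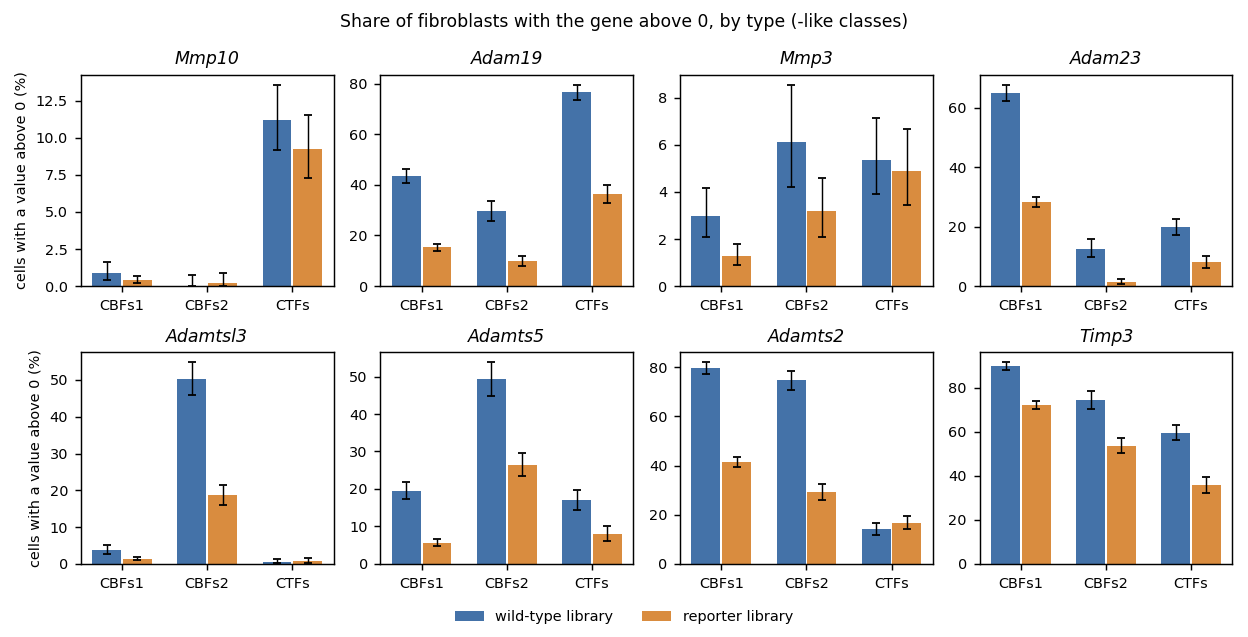
Percentage of cells with a value above 0 in the 3 fibroblast types of each library, with Clopper-Pearson 95% intervals that cover counting error only. In the wild-type library Adam19 falls from 76.8% of CTFs-like to 29.6% of CBFs2-like cells, and Adam23 from 65.1% of CBFs1-like to 12.6% of CBFs2-like cells.

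Both types of crypt bottom fibroblast differed by a set of Adamts and Adamtsl genes. In CBFs2-like against CBFs1-like cells of the wild-type library, 7 of 31 members were higher, 3 lower and 21 within 2-fold, beside 10.1% of all genes past 2-fold (6.56% higher, 3.57% lower), with medians of 0.19 over the members and 0.09 over all genes. Higher were Adamtsl3 (0.862 against 0.0422, 20.4-fold), Adamts5 (1.58 against 0.286, 5.52-fold), Adamts1 (4.35 against 0.919, 4.73-fold), Adamtsl1 (0.722 against 0.157), Adamts19, Adamts6 and Mmp3. Lower were Adam23 (0.187 against 1.5, 7.98-fold), Mmp11 (0.217 against 0.688) and Adamtsl2 (0.0966 against 0.230). Among reporter cells 5 of 24 members were higher, 2 lower and 17 within 2-fold, beside 10% of all genes (4.09% higher, 5.95% lower), with medians of -0.16 over the members and -0.20 over all genes. Adamtsl3 (0.224 against 0.0148, 15.2-fold), Adamts5 (0.484 against 0.0645, 7.50-fold), Adamtsl1, Mmp3 and Adamts1 were higher, and Adam23 (0.0153 against 0.371, 24.3-fold) and Mmp11 (0.0635 against 0.207) lower. All 7 of these were past 2-fold in the same direction in the wild-type library too, which makes 29.2% of the 24 members that passed in both, beside 6.01% of 6073 genes of all kinds. The sign was the same for 87.5% of these members and 68.7% of all genes, and rho was 0.905 and 0.680. Over the 3 fibroblast types, 18 of 25 members (72%) had their highest mean in the same type in both libraries, beside 54.7% of 7401 genes of all kinds.

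The crypt top fibroblasts were not uniform. At a higher clustering resolution of 0.8 the wild-type CTFs-like cells fell into a larger cluster of 611 cells (596 of them CTFs-like) and a smaller one of 222 cells, led by genes such as Lpar3, Dmp1, Il1rl1 and Nrg1. In the smaller cluster Mmp2 averaged 12.8 against 5.45, Timp1 1.99 against 0.378, Mmp19 0.995 against 0.211, Mmp13 0.144 against 0.00982, Adamts18 0.369 against 0.0164 and Adam23 1.14 against 0.0769. Timp3, at 0.338 against 2.23, and Adam33, at 0.0045 against 0.169, were lower there. The higher Adamts18 and Adamts3 of the CTFs-like class came mainly from these 222 cells, and its Adam33 from the larger cluster, whereas Mmp10 (0.194 and 0.227) and Adam19 (1.83 and 2.18) were spread over both. The reporter library also had a CTFs-like cluster with Nrg1 among its leading genes, of 236 cells beside 522. There Adam23 averaged 0.318 against 0.0153, Mmp11 0.271 against 0.0268, Mmp13 0.0424 against 0.00192, Mmp2 2.61 against 2.10 and Timp1 0.572 against 0.368, but Adam19 was lower, at 0.216 against 0.669. Without these 236 cells, Adam23 in the reporter CTFs-like class averaged 0.0153. Their label is weak. Of the 12 CTFs markers 6 stood 2-fold above the other reporter cells, against 11 in the 522. Their mean CTFs marker log2 level over the fibroblast clusters was 0.37, against 1.52. The median numbers of genes were 1846 and 1444, and whether mixed cells were among them was not tested. Reporter CBFs1-like means were 0.371 (Adam23), 0.207 (Mmp11), 0.0019 (Mmp13), 1.21 (Mmp2), 0.373 (Timp1) and 0.183 (Adam19). In the larger CTFs-like cluster of the wild-type and reporter libraries, Timp1 (0.378 and 0.368) was below its CBFs1-like means (0.589 and 0.373). The CBFs1-like cells of the wild-type library also split. Adamtsl2, which is among the leading genes of a cluster of 321 cells, averaged 0.642 there and 0.0688 in the other 800.

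Inflammatory fibroblast-like cells, a CBFs1-like cluster of 544 reporter cells with Cxcl5 and Cxcl9 among its leading genes, were compared with the other CBFs-like cells. Mmp14 (1.11 against 0.482) and Mmp19 (0.294 against 0.135) were higher, Adamts5 and Adamtsl3 were lower, and 20 of the 24 members were within 2-fold, beside 17.8% of all genes past 2-fold (17.3% higher, 0.534% lower). The medians were 0.43 over the members and 0.57 over all genes. Adamts5 and Adamtsl3 are also higher in CBFs2-like cells, which stand only among the cells compared with. Against the other CBFs1-like clusters alone, their log2 ratios turned from -1.33 to 0.24 and from -1.31 to 1.42, while Mmp14 and Mmp19 stayed past 2-fold. The median number of genes was 1860 in the inflammatory cluster and 1173 to 1378 in the other 3 CBFs-like clusters. With each cell thinned to a total of 2000, Mmp14 and Mmp19 fell short of 2-fold, with log2 ratios of 0.88 and 0.84, so that 0 members were higher and 1, Adamts5 (-1.75), was lower.

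More members were lower than higher in smooth muscle-like cells than in fibroblasts. Against fibroblasts, 2 of 32 members were higher in smooth muscle-like cells, 17 lower and 13 within 2-fold, beside 15.9% of all genes past 2-fold (6.08% higher, 9.81% lower), with medians of -1.09 and -0.07. The higher ones were Adamts6 (0.267 against 0.0398, 6.71-fold) and the membrane-anchored Mmp17 (0.127 against 0.0211, 6.00-fold). Mmp3 (36.6-fold), Adamtsl3 (12.6-fold), Timp1 (0.0591 against 0.654) and Mmp2 (0.554 against 5.21) were lowest relative to fibroblasts. In pericyte-like against smooth muscle-like cells, 8 of 28 members were higher, 10 lower and 10 within 2-fold, beside 29% of all genes (12.1% higher, 16.9% lower), with a median of -0.20 over both the members and all genes. Adamts15 (0.0932 against 0.00845), Adamts9 (1.12 against 0.117), Adamts4 (3.64 against 0.420), Adamts1 (8.77 against 1.48), Adamts8 and Timp3 (10.0 against 3.03) were among the higher. Timp2 (1.6 against 5.37), Mmp23 (0.0932 against 0.868) and Adam19 were among the lower. Adam23 had a sum of 2 in pericyte-like and 379 in smooth muscle-like cells, a ratio of 23.6 (counting interval 6.49 to 196), and Mmp19 was found in 0 of 118 pericyte-like cells and was at least 5.81-fold lower.

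In blood endothelial-like cells against fibroblasts, 5 of 28 members were higher, 20 lower and 3 within 2-fold, beside 31.4% of all genes past 2-fold (12.4% higher, 19% lower), with medians of -3.20 and -0.19. The higher ones were Mmp15 (0.530 against 0.0199, 26.7-fold), Adamts9 (1.15 against 0.0767, 14.9-fold), Adam15 (1.79 against 0.388), Adam10 (0.867 against 0.378) and Adamts1 (3.48 against 1.52). Adam23 (35.9-fold), Adam19 (33.0-fold), Mmp23 (27.3-fold) and Mmp2 (25.1-fold) were lower. The class held 2 clusters. In the 98 cells with the venule genes Selp and Madcam1 among their leading genes, Adamts9 averaged 4.88 and Adamts4 3.31, against 0.407 and 0.322 in the other 494, while Mmp15 averaged 0.204 against 0.595. The activated fibroblast list had a mean log2 ratio over the other cells of 2.16 in the 98 cells and 0.12 in the 494. Its part in the Adamts levels was not tested. The 43 lymphatic endothelial-like cells had little Adamts1 (0.163) and Adamts9 (0.0465).

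RNA of the fibroblast marker genes was also measured in other classes, and whether those cells made it themselves was not tested. The 10 fibroblast markers, none of which was at 0 in any class, had sums of 28.0% (pericyte-like) and 35.1% (smooth muscle-like) relative to CBFs1-like cells. The share was 26.6% in glia-like, 16.2% in lymphatic endothelial-like, 10.5% in blood endothelial-like, 9.96% in immune-like and 0.779% to 2.79% in epithelial classes. In the reporter library it was 38.6% in immune-like and 35.7% in epithelial cells, which were highest for 2 and 3 members. The 8 epithelial markers stood at 1.24% to 3.43% of the enterocyte-like level in the non-epithelial classes. Levels of fibroblast members in these classes, such as Mmp2 in smooth muscle-like or Timp2 in immune-like cells (1.18), have this signal beside them, and its part in them was not tested.

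The epithelium held little of the system. In all epithelial cells against fibroblasts, 1 of 28 members was higher, 25 lower and 2 within 2-fold, beside 52.1% of all genes past 2-fold (34.9% higher, 17.2% lower), with medians of -5.00 over the members and 0.48 over all genes. The higher member was Mmp15 (0.508 against 0.0199, 25.5-fold). Mmp2 was lower by 91.6-fold, Mmp23 by 90.6-fold and Adamts2 by 80.6-fold, and Adam10 (0.397 against 0.378) was not called. Adamts15 (0.0767 against 0.0146) and Timp4 (0.0674 against 0.00447) had higher means in epithelial cells but were below the filter. The filter averages both means, so members at a low level in the epithelium and near 0 in fibroblasts are not in these counts. Adam17 (0.128 against 0.361), Adam9 (0.209 against 0.441) and Adam15 (0.185 against 0.388) were lower by 2.10-fold to 2.81-fold, less than the secreted enzymes named here.

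Within the epithelium, few members reached the filter. In enterocyte-like against transit-amplifying-like cells, 3 of 11 were higher, 3 lower and 5 within 2-fold, beside 40.3% of all genes past 2-fold (11.2% higher, 29.1% lower), with medians of 0.13 and -0.43. Mmp15 (0.694 against 0.234), Adam15 (0.282 against 0.109) and Adamtsl5 (0.0849 against 0.0184) were higher, and Timp3 (0.128 against 0.590), Mmp14 (0.0551 against 0.251) and Adam17 (0.0671 against 0.182) were lower. In goblet-like against transit-amplifying-like cells, 4 of 10 were higher, 1 lower and 5 within 2-fold, beside 28.5% of all genes (12.5% higher, 16.1% lower), with medians of 0.36 and -0.15. These were Adam18 (0.174 against 0.00851, 20.4-fold), a relative known from sperm, Adamts17 (0.103 against 0.0142), Mmp15 (0.616 against 0.234) and Timp2 (0.241 against 0.0936), while Timp3 was lower. Adam18 was above 0 in 15.2% of goblet-like cells (12.5% to 18.2%) and in 0 of 1137 CBFs1-like cells, at medians of 3290 and 2682 genes. At resolution 0.8 it averaged 0.332 in the 328 goblet-like cells with Retnlb as leading gene and 0.00647 in the 309 with Zg16 as leading gene, Adamts17 0.177 and 0.0259, and Mmp7 0.122 and 0.00324. Mmp15 was highest, at 1.11, in the 211 enterocyte-like cells with Saa1 among their leading genes, against 0.547 in the other 402.

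Other genes of extracellular proteolysis, from a list of 38 of which 35 were in the wild-type table, were compared in the same way. In CTFs-like against CBFs-like cells 4 of the 26 that passed were higher and 10 lower, beside 12.6% of all genes past 2-fold. The higher ones were the plasminogen activator Plau (0.985 against 0.0310), Ece1 (3.06 against 0.854), Rhbdf2 and Fbn2 (0.192 against 0.0255), and the lower ones included the protease inhibitors Serpine2 (0.0134 against 1.22) and Serpinf1 (0.0672 against 1.91). Pcolce2 and Serping1, also in the list and among the 10, are markers used for naming, so that their calls here and in the other comparisons with fibroblasts add nothing. The reporter library had 2 of 22 higher, Ece1 and Adamdec1, and 6 lower (10.2% of all genes). In CBFs2-like against CBFs1-like cells 4 of 25 were higher and 2 lower in the wild-type library, and 4 of 23 and 3 in the reporter library (10.1% and 10% of all genes). Adamdec1, a secreted Adam relative whose symbol falls outside the rule, averaged 0.783 in wild-type CBFs2-like and 35.6 in wild-type CBFs1-like cells and 0.518 and 7.04 in the reporter cells. Its level of 33.3 in wild-type CTFs-like cells set CBFs2-like cells apart from both other types.

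In the other comparisons the list gave 2 higher and 13 lower of 28 in smooth muscle-like cells (15.9% of all genes past 2-fold), 3 and 18 of 27 in blood endothelial-like cells (31.4%), 4 and 10 of 27 in pericyte-like cells (29%), and 4 and 1 of 23 in the inflammatory cluster (17.8%). In the epithelium 8 of 31 were higher than in fibroblasts and 20 lower, beside 52.1% of all genes. The higher ones included the meprins Mep1a (0.858 against 0.0114) and Mep1b (0.444 against 0.00447), which are membrane metalloproteinases of enterocytes, the receptor Plaur (2.83 against 0.231) and Tspan15 (1.06 against 0.0207), a partner of Adam10. In enterocyte-like against transit-amplifying-like cells 6 of 20 were higher and 4 lower (40.3% of all genes), with Mep1a at 2.61 against 0.391, and in goblet-like cells 1 of 18 was higher and 3 lower (28.5%).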

How the data were processed

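Single-cell RNA of the colon was measured in 1 wild-type library (V3 kit) and 1 reporter library (V2 kit). The authors aligned reads to mm10 and counted UMIs with Cell Ranger, filtered genes and cells in Seurat 3.1 under R 3.6.2, and applied SCTransform. The deposited values are whole numbers that behave as corrected counts and not UMI counts, and are treated as a score, with companion natural log values that the authors computed as ln(1 + value). No sample columns beside those of the 2 libraries were left unused (0). Correction to a common depth removes most of the depth differences between cells, so that means reflect a share of a cell's RNA, and no count model was used.

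The members and gene lists were chosen with earlier results of these data known. Cells (7495 and 4409, none filtered) were clustered on the natural log table with Seurat 5.3.0 (R 4.3.3) on 2972 and 2979 variable features without members, 30 principal components and resolutions of 0.45 and 0.3, from the study's methods. Marker lists were fixed, but the rule that scores them was set after clusters were seen. In the reporter library, clusters led by a fibroblast list, or in which no cell type list had 3 markers and its mean at 2-fold or more, were taken as fibroblasts (lists of activated and inflammatory fibroblasts were not used for this) and typed by their mean marker level against the other fibroblast clusters. The wild-type lymphatic cluster also held fibroblasts, which a resolution of 0.8 set apart as 131 cells without a type name. Their cluster was led by Pi16, C3 and Dpt, and Pi16 and C3 are in the CBFs2 marker list. These 131 cells and 606 unnamed cells were left out, so that the CBFs2-like class does not hold them. Scrublet (scanpy 1.11.5) marked 7 (0.0934%) and 5 (0.113%) cells, too few to have worked, so doublets were not removed. Cells above 10% mitochondrial values numbered 3043 of 7495 and 0 of 4409. The authors had kept only reporter cells below 10%, which sets this 0, and used a higher limit for wild-type cells.

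Means per cell of a class were divided by each other (Python 3.11.15, numpy 2.4.6, scipy 1.17.1). A gene was called at 2-fold when both means averaged at least 0.05, with a floor of 3 summed values over a class. Named were all Timp genes, members with a mean of at least 0.5 in a class, the up to 5 largest called rises and falls per comparison, the study's Adam23, and listed genes of proteolysis where called or above 1 per cell, 41 of 65 members in all. Mmp7, Mmp9, Mmp13, Mmp16, Mmp24, Adam22 and the members below 0.05 were named after their values were seen, as were the clusters within classes. The scripts were tested on simulated data with genes changed by known folds. Clopper-Pearson 95% intervals cover counting error only. Alternatives changed the fold, the filter, the depth, the scaling, the cells and the clustering. Promoters were from RefSeq (GRCm38.p6) and gene positions from GENCODE M21.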

Additional observations from a re-analysis of the deposited data

How the results depend on the processing

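Of the values that answer a comparison, 134 kept their result under an alternative and 28 moved, and of the values of single members 1038 kept it, 56 moved and 2 reversed. The number of members past 2-fold depended on the fold and filter. At 1.5-fold there were 15 in CTFs-like over CBFs-like in the reporter library, 12 and 19 in CBFs2-like over CBFs1-like in the reporter and wild-type libraries, and 11 in the inflammatory cluster. At 3-fold there were 15 in CTFs-like over CBFs-like in the wild-type library and 2 in the reporter library, 12 for smooth muscle-like, 3 for enterocyte-like, 2 for goblet-like and 0 for inflammatory cells. A filter at 0.2 left 14 and 4 in CTFs-like over CBFs-like (wild-type, reporter), 2 in CBFs2-like over CBFs1-like of the reporter library, 11 in smooth muscle-like, 11 in pericyte-like, and 2 each for enterocyte-like, goblet-like and inflammatory cells, since fewer members pass it. A filter at 0.02 gave 40 in the epithelium and 11 in goblet-like cells. Thinning cells to 2000, which lowers the wild-type means so that fewer members pass the filter, gave 13 in CTFs-like over CBFs-like of the wild-type library, of which 1 was higher, 9 in smooth muscle-like, 2 each in enterocyte-like and goblet-like, and 1 in inflammatory cells. In the reporter library 17 members reached 0.2 in a class, and 44 reached 0.05 per 10000 of the class total. Leaving out the activated cluster, or it and the inflammatory cluster (10 and 9 past 2-fold in CTFs-like over CBFs-like and CBFs2-like over CBFs1-like), alternatives also chosen after seeing the data, kept each count within 1.5 times. Against other CBFs1-like clusters only, an alternative chosen after seeing the data, 2 members were past 2-fold in inflammatory cells, and Adamts5 and Adamtsl3 reversed to log2 ratios of 0.24 and 1.42.

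No paired analysis was possible because each condition has 1 library, and for the same reason no replicate could be left out. Differences between mice are not measured. The reporter library, with median totals of 3150 against 8972 per cell, limits its low members, of which 24 of 53 stayed below 0.05 per cell. Classes of under 100 cells (glia-like, lymphatic endothelial-like, immune-like and enteroendocrine-like cells of the wild-type and epithelial cells of the reporter library) rest on few cells. The corrected counts are 3' tags on a scale set per library. Free RNA was not removed, and doublets were not called reliably.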
